A study of Mus musculus with 10 samples.

Results

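The IFIT, IFI27, IFI44, IFI35 and IFITM genes are interferon-induced genes, and 10 of them were followed in the hippocampus of female P301S mice, by matching the mouse symbols Ifit1, Ifit2, Ifit3, Ifit3b, Ifi27, Ifi27l2a, Ifi44, Ifi35, Ifitm2 and Ifitm3 to the Ensembl identifiers of the count table. All 10 were found among the 56884 genes of the table. The mice carried a human Tau transgene with the P301S mutation (PS19 line, driven by the mouse Prnp promoter), were female with intact ovaries, and received either a SILASTIC implant with 10 mm of DHT powder, a non-aromatizable androgen, or an empty (void) implant at 6 months of age. After 12 weeks, at 9 to 9.5 months, the hippocampus of 5 void-treated and 5 DHT-treated females was taken for bulk mRNA sequencing, with 1 library per mouse. Both groups carried the transgene, so the comparison is between implants within tauopathy mice. The libraries held 27188854 to 47113661 counts with void and 33523527 to 45947784 with DHT.

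Interferons are cytokines released when a cell senses foreign or misplaced nucleic acid. Type I interferon binds its receptor, the kinases Jak1 and Tyk2 are activated, and STAT proteins join Irf9 to form ISGF3, which binds the interferon-stimulated response element (ISRE) in promoters. IFIT proteins bind RNA and block translation of viral transcripts, IFITM proteins sit in membranes and hinder the entry of enveloped viruses, and the IFI genes carry the name only for being induced by interferon. In brain, microglia in aged and diseased tissue are known to hold a subset of cells with high levels of such genes.

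The promoters are shown because the ISRE is the element through which interferon-induced genes are known to respond. RefSeq promoter sequences on GRCm38.p6, from 250 bases before to 50 bases after the start of transcription, were at hand for 8 of the 10 members, in 9 windows. The core of the ISRE was searched as GAAANNGAAA on both strands (TTTCNNTTTC on the other), and it was present in the windows of 5 members, against 3.44% of all 32851 promoter windows. The stretches that hold it are printed 5′ to 3′ on the strand of the gene, with the matches in capitals and 10 flanking bases on each side, except for Ifitm3, where only the stretch from the first to the second match is shown.
Ifit1 (chr19:34640775-34640823, plus strand): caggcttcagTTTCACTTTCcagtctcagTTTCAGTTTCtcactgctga
Ifit3 (chr19:34583363-34583426, plus strand): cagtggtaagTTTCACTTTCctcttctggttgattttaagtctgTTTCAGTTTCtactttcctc
Ifit3b (chr19:34607759-34607822, plus strand): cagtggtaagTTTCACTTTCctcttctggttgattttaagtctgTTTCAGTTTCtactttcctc
Ifitm2 (chr7:140955988-140956017, minus strand): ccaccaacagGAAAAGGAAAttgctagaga
Ifitm3 (chr7:141010716-141010742, minus strand): GAAAAGGAAActtctgaGAAACCGAAA
Ifit1, Ifit3, Ifit3b and Ifitm3 held 2 matches each and Ifitm2 held 1. The matches began 104 and 85 bases before the start in Ifit1, and 156 and 122 bases before it in Ifit3. In Ifit3b they began 188 and 154 bases before it. In Ifitm3 they began at bases 3 and 20 after it. The stretches of Ifit3 and Ifit3b were identical at 64 of 64 positions. These letters were not in the windows of Ifit2, Ifi44 and Ifi35. A second motif, the gamma-activated sequence TTCNNNGAA (its own reverse complement), was in the windows of Ifitm3, Ifi35 and Ifit2, 3 of the 8 members, and in 8.30% of all windows. The matches are a description of the sequence and no evidence of binding.

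Of the 10 members, 8 were higher in DHT-treated females and none was lower, where a gene counts as called at an adjusted p under 0.05 in the quasi-likelihood test of edgeR (Benjamini-Hochberg method, 17622 genes tested). Across all genes tested, 5.22% were higher and 0.261% lower by the same rule. The members and the gene lists below were chosen with earlier results of these data known. The share over all genes is therefore set beside them as a description only. With a log2 fold change above 1 required as well, 6 members were higher (Ifit1, Ifit3, Ifit3b, Ifi27l2a, Ifi44 and Ifitm3), against 2.17% of all genes tested. Both counts include Ifi27l2a, which passed the expression filter through the DHT group, where it is high. With at least 10 counts required in every library it was not tested, and 7 of the 9 members left were called. All 10 members had a positive log2 fold change, from 0.47 for Ifit2 to 2.56 for Ifi27l2a, with a median of 1.51 where the median over all genes tested was 0.01. In 7 members every DHT-treated mouse was above every void-treated mouse, which held for 5.39% of all genes tested. The range, its median and this count of 7 also include Ifi27l2a. The 9 members tested with at least 10 counts in every library had a median log2 fold change of 1.32. Values below are CPM (counts scaled to 1e6 per TMM-adjusted library), given in the order of void replicates 4, 5, 9, 10 and 11 and of DHT replicates 1, 2, 3, 5 and 6, and errors of log2 fold changes are standard errors.

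**Figure D1:**
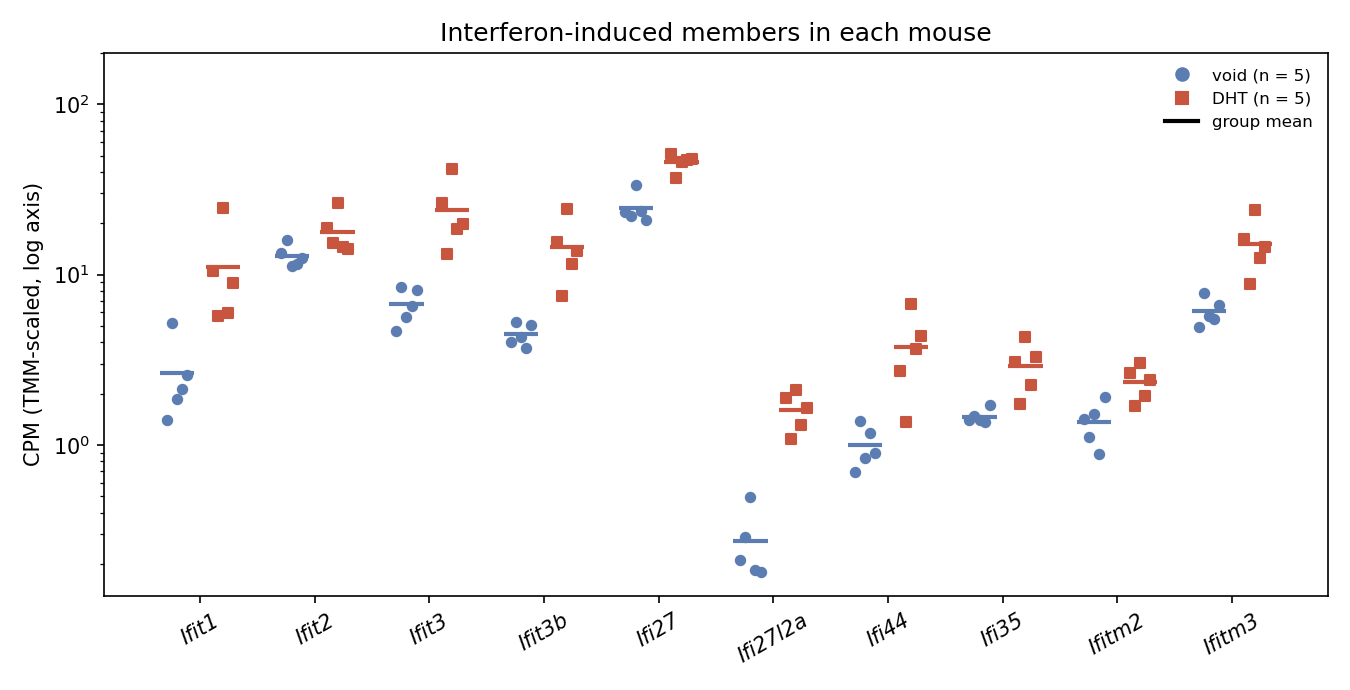
CPM of the 10 members in each void-treated (circles) and DHT-treated (squares) mouse on a log axis, with the group mean as a bar. The groups are fully apart for 7 members, and they overlap for Ifit2, Ifi44 and Ifitm2.

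Among the IFIT genes, which lie side by side on chromosome 19, Ifit1, Ifit3 and Ifit3b rose and Ifit2 did not pass the test. Ifit1, which recognises foreign RNA by its cap, was at 1.40, 5.18, 1.86, 2.14 and 2.58 CPM with void. With DHT it was at 10.5, 5.72, 24.6, 5.99 and 8.87 CPM. The groups did not overlap, but void replicate 5 lay just under DHT replicate 2, and DHT replicate 3 stood far above the other 4 DHT-treated mice. Void-treated mice averaged 2.63 ± 1.49 CPM against 11.1 ± 7.77 CPM under DHT (SD, n = 5 per group), and the log2 fold change was 2.10 ± 0.45 (edgeR, adjusted p = 0.0202). The call was lost in edgeR without void replicate 10, 11 or 4 (adjusted p = 0.0570, 0.0642 and 0.0574), while the log2 fold change stayed between 1.55 and 2.50 over the 10 fits that each left out 1 mouse.

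Ifit3 and Ifit3b are near copies of each other, and their proteins work in complexes with other IFIT proteins. Ifit3 was at 4.65, 8.50, 5.62, 6.57 and 8.09 CPM with void and at 26.4, 13.2, 41.6, 18.6 and 19.8 CPM with DHT. Ifit3b was at 4.0, 5.27, 4.28, 3.73 and 5.03 CPM with void and at 15.5, 7.48, 24.3, 11.5 and 13.8 CPM with DHT. For both genes every DHT-treated mouse was above every void-treated mouse, with DHT replicate 2 lowest and DHT replicate 3 highest. The log2 fold change was 1.84 ± 0.28 for Ifit3 and 1.70 ± 0.26 for Ifit3b (edgeR, adjusted p = 0.00761 for both), and both stayed called in all 10 fits with 1 mouse left out. Of the 100-base windows of the longest Ifit3 transcript, 31.7% were found unchanged in Ifit3b, and 27.4% of those of Ifit3b in Ifit3, so the counting could have divided or dropped reads between them. Ifit1 shared 3.29% of its windows with Ifit1bl2 and Ifit2 shared none. The number of Ifit3 counts per Ifit3b count was 1.49 ± 0.245 in void-treated and 1.64 ± 0.128 in DHT-treated mice (SD, n = 5 per group).

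Ifit2, which in mice protects the brain against several neurotropic viruses, was at 13.4, 15.9, 11.2, 11.5 and 12.5 CPM with void. With DHT it was at 18.7, 15.4, 26.4, 14.6 and 14.2 CPM. Only DHT replicates 1 and 3 exceeded the highest void-treated mouse. Its log2 fold change of 0.47 ± 0.17 did not pass the test (edgeR, adjusted p = 0.157), and it did not pass in any of the 10 fits with 1 mouse left out or with DESeq2 (adjusted p = 0.115). Without DHT replicate 3 its log2 fold change was 0.26. Scaled to exon length, Ifit2 was the second most abundant IFIT gene with void, at 3.29 ± 0.481 CPM per kb after Ifit3 at 3.83 ± 0.931, and the third with DHT, at 4.54 ± 1.303 after Ifit3 at 13.7 ± 6.27 and Ifit3b at 7.25 ± 3.12 (SD, n = 5 per group).

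The IFI27 genes encode small hydrophobic proteins of the ISG12 family and lie together on chromosome 12. Ifi27l2a showed the largest fold change of the 10 members. It was at 0.211, 0.288, 0.496, 0.184 and 0.180 CPM with void and at 1.89, 1.09, 2.10, 1.32 and 1.64 CPM with DHT. The groups were well apart, and the log2 fold change was 2.56 ± 0.30 (edgeR, adjusted p = 0.00670). The void libraries held only 5 to 16 counts of Ifi27l2a each, against 44 to 100 in the DHT libraries, so the gene passed the expression filter through the DHT group.

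Ifi27 was the most abundant member per exon length, at 16.9 ± 3.5 CPM per kb in void-treated and 31.2 ± 3.65 in DHT-treated mice (SD, n = 5 per group). In CPM it was at 23.3, 22.2, 33.8, 23.5 and 21.0 with void and at 51.3, 36.9, 45.9, 46.8 and 47.7 with DHT. The groups did not overlap, and void replicate 9 was well above the other 4 void-treated mice. Its log2 fold change was 0.89 ± 0.13 (edgeR, adjusted p = 0.00671), below the limit of 1, with the smallest standard error of the 10 members. Ifi27 was also the one member for which DHT replicate 3 was not the highest mouse.

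Ifi44 encodes a cytoplasmic protein and lies on chromosome 3. It was at 0.698, 1.37, 0.838, 1.18 and 0.899 CPM with void and at 2.705, 1.36, 6.72, 3.65 and 4.38 CPM with DHT. DHT replicate 2 lay just below void replicate 5, and the other 4 DHT-treated mice exceeded the whole void group. The log2 fold change was 1.93 ± 0.37 (edgeR, adjusted p = 0.0127), and it stayed called in all 10 fits with 1 mouse left out. Ifi35, a leucine-zipper protein that pairs with Nmi, ranged from 1.37 to 1.71 CPM with void and from 1.73 to 4.29 CPM with DHT. The lowest DHT-treated mouse was thus barely above the highest void-treated one, and the log2 fold change was 0.998 ± 0.22 (edgeR, adjusted p = 0.0235), just under the limit of 1. Ifi35 overlaps Gm11626 on the opposite strand, and without a stated strand setting reads of the 2 cannot be told apart. The call was lost in 5 of those 10 fits, with adjusted p values of 0.0692 and 0.0589 without DHT replicates 1 and 3 and of 0.0625, 0.0568 and 0.0654 without void replicates 10, 11 and 4.

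Of the IFITM genes, on chromosome 7, Ifitm3 rose and Ifitm2 did not pass the test. Ifitm3, which acts in endosomes to block viral fusion, was at 4.91, 7.83, 5.74, 5.46 and 6.65 CPM with void and at 16.2, 8.76, 23.8, 12.6 and 14.4 CPM with DHT. Every DHT-treated mouse was above every void-treated mouse, and the log2 fold change was 1.31 ± 0.23 (edgeR, adjusted p = 0.00991). Ifitm2, its close relative, ranged from 0.886 to 1.92 CPM with void and from 1.70 to 3.02 CPM with DHT, with 4 of 5 DHT-treated mice beyond the void range. Its log2 fold change was 0.77 ± 0.22 (edgeR, adjusted p = 0.0703). It passed with DESeq2 (adjusted p = 0.0243) and in edgeR without DHT replicate 2 (adjusted p = 0.0432). Of the 100-base windows of Ifitm2, 34.9% were also found in the gene models Gm11951, Gm45717 and Gm8865, and Gm45717 overlaps it on the same strand, so its counts are uncertain.

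**Figure D2:**
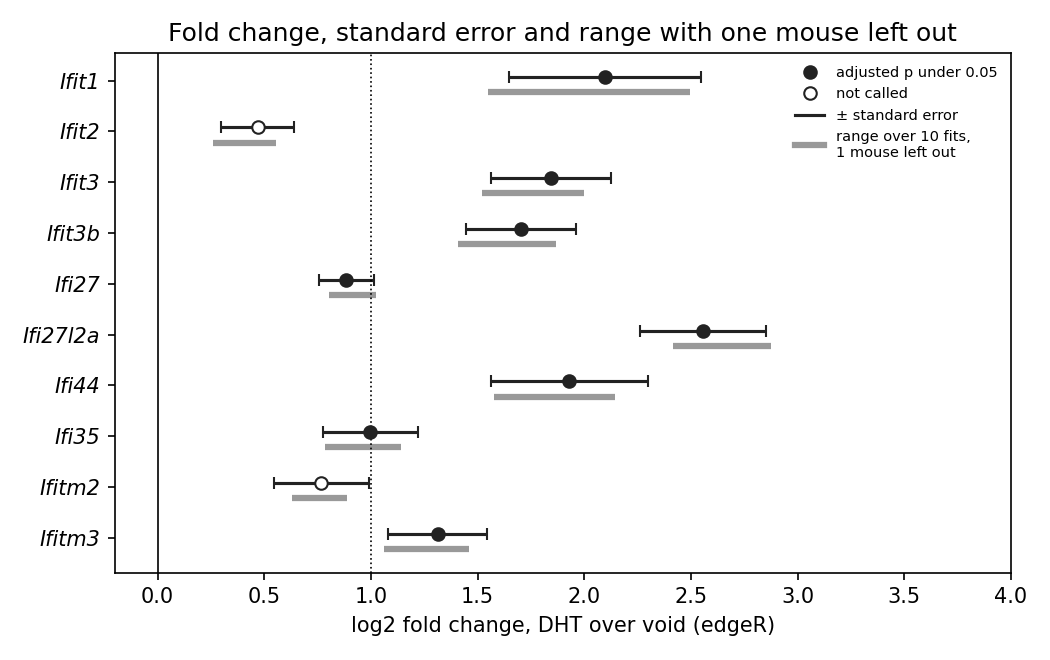
Log2 fold change of each member, DHT over void, with its standard error from edgeR (filled points, adjusted p under 0.05, open points, not called), and the range over the 10 fits that each left out 1 mouse (grey bars). The dotted line marks a log2 fold change of 1, and no grey bar reaches 0.

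Between genes, levels are compared here per kb of exon. With void, the order was Ifi27, Ifitm3, Ifit3, Ifit2, Ifit3b, Ifitm2, Ifit1, Ifi35, Ifi27l2a and Ifi44. With DHT it was Ifi27, Ifitm3, Ifit3, Ifit3b, Ifit2, Ifit1, Ifitm2, Ifi27l2a, Ifi35 and Ifi44. The first 3 and the last gene were thus in the same places in both groups. Not every neighbour pair kept its order in every mouse. With void, Ifit3b was above Ifitm2 in 2 of 5 mice and Ifit1 above Ifi35 in 2 of 5, and with DHT, Ifit1 was above Ifitm2 in 1 of 5 mice although its mean was higher. The lowest level was that of Ifi44, at 0.163 ± 0.0447 CPM per kb in void-treated and 0.614 ± 0.327 in DHT-treated mice (SD, n = 5 per group).

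The DHT-treated mice differed among themselves in the same order for most members. DHT replicate 3 was the highest of the group for 9 of the 10 members and DHT replicate 2 the lowest for 9 of them. Relative to the mean of the other 4 DHT-treated mice, DHT replicate 3 was 3.16-fold higher in CPM for Ifit1, 2.22-fold for Ifi44, 2.13-fold for Ifit3 and 2.01-fold for Ifit3b, but 1.005-fold for Ifi27. In void-treated mice the order was less uniform, with void replicate 5 highest for 6 members. The CV of CPM over the DHT-treated mice was 69.8% for Ifit1 and 11.7% for Ifi27. Leaving out DHT replicate 3 lowered the median log2 fold change of the members from 1.51 to 1.24, and 7 members were still called.

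**Figure D3:**
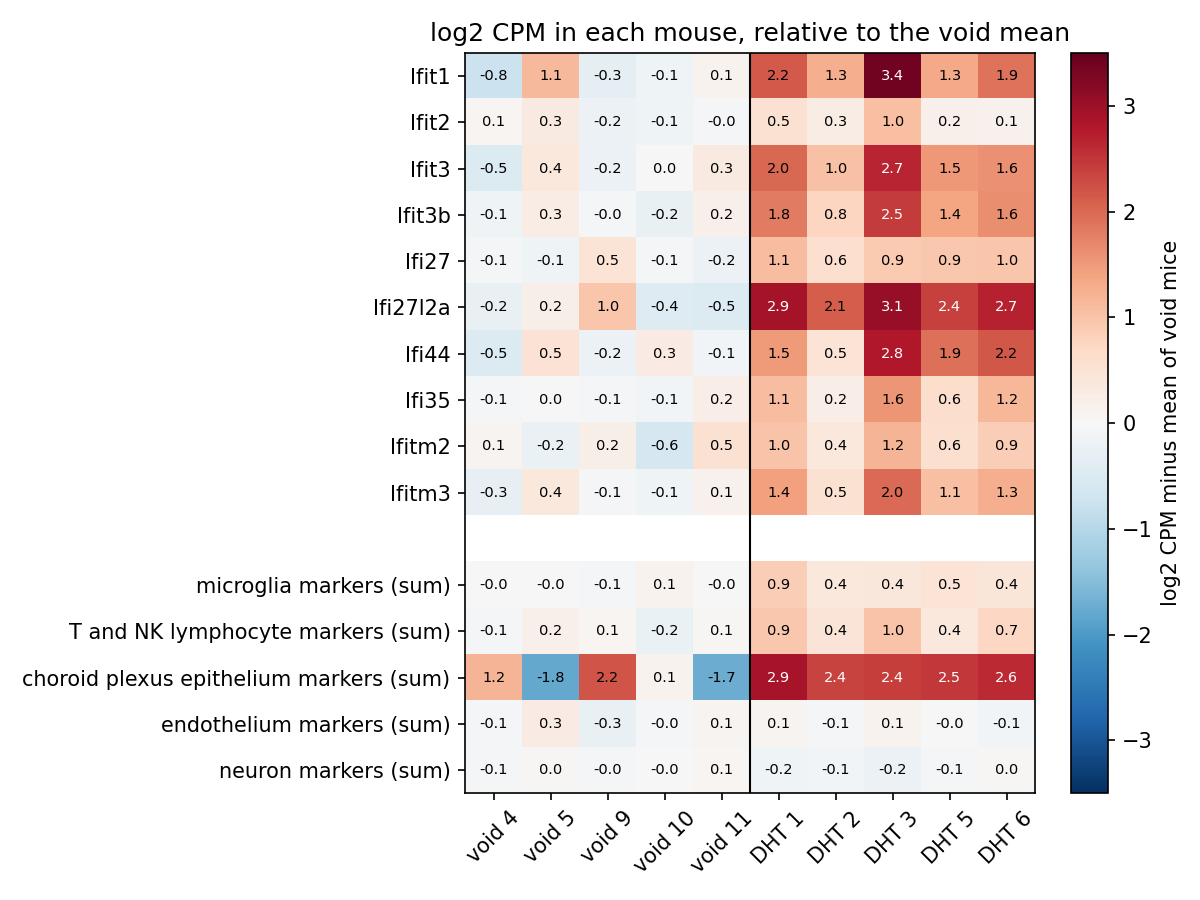
Log2 CPM of each member, and of the summed CPM of 5 marker lists, in each mouse, minus the mean of the void-treated mice. DHT replicate 3 is highest for 9 of the 10 members, while the microglia marker sum is highest in DHT replicate 1.

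In bulk tissue, a higher count from more cells of a type and one from more RNA per cell cannot be told apart, so marker genes of the cell types in the dissection are given here. Of all genes tested, 5.22% were higher and 0.261% lower, which is the share to set beside each count of markers. All 12 microglia markers were tested, 4 were higher, among them Cx3cr1, Csf1r and Gpr34, and their median log2 fold change was 0.39. Their summed level ranged from 499 to 571 CPM with void and from 682 to 953 CPM with DHT. It was 953 CPM in DHT replicate 1 and 695 CPM in DHT replicate 3, the mouse with the highest members. A sum is weighted to the abundant markers. By the mean log2 CPM of the microglia markers, DHT replicate 1 was at 5.71 and DHT replicate 3 next at 5.35. DHT replicates 6, 5 and 2 were at 5.33, 5.32 and 5.27. Of the 12 choroid plexus markers, 5 were higher and the median log2 fold change was 2.15, and their sum ranged from 115 to 1835 CPM with void and from 2078 to 2945 CPM with DHT. T and NK lymphocyte markers were scarce, with 2 of 12 tested and neither called, and their sum ranged from 1.51 to 2.01 CPM with void and from 2.30 to 3.56 CPM with DHT. No marker in these lists was at 0 in every library. Of 64 tested markers in the 10 lists for neurons, hippocampal subfields, glia, vessels, meninges and blood cells, 2 were higher (Gfap and Slc13a4) and none was lower, and the medians of the lists ranged from -0.09 to 0.34. The hippocampal subfield markers, at a summed 1106 to 1656 CPM with void and 1349 to 1677 CPM with DHT, were present in all mice.

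The microglia and choroid plexus lists were also put into the fit, each as its mean log2 CPM per mouse. The microglia mean was 4.90 to 5.09 with void and 5.27 to 5.71 with DHT. The choroid plexus mean was 1.53 to 5.50 with void and 5.88 to 6.67 with DHT. Both were thus fully apart between the groups, so these fits could not separate marker level from treatment. With either as a covariate, no member was called by edgeR, and neither was any of the 17622 genes. With the choroid plexus covariate, all 10 members kept a positive log2 fold change, with a median of 1.71, and 8 had an unadjusted p under 0.05, although Ifi27 dropped to 0.48. With the microglia covariate, the median was 1.21 and 5 members had an unadjusted p under 0.05. The standard errors were larger in these fits (for Ifit3, 0.50 with the choroid plexus and 0.59 with the microglia covariate, against 0.28 without), and the part of either cell type in the members' rise was not tested. The library names carry the numbers S4 to S11 with void and S18 to S23 with DHT. The labels do not say what these numbers stand for. If they are an order of the libraries, treatment and that order cannot be told apart.

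The interferons themselves were almost without counts. Of 21 interferon genes, 18 were at 0 in all 10 libraries, and the others, Ifnb1, Ifnz and Ifng, had 1 count in all void libraries together and 4 in all DHT libraries. Ifnb1, the type I interferon made by most cell types, had 0 counts with void, which allows up to 0.0174 CPM over the group (3 counts, counting error only), and 1 count with DHT, in replicate 3. A difference in the ligands was therefore not detectable at this depth.

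Most receptor and signalling genes did not pass the test, by which 5.22% of all genes tested were higher. Ifnar1 and Ifnar2, the chains of the type I interferon receptor, had log2 fold changes of 0.03 ± 0.05 and 0.21 ± 0.13 (edgeR, adjusted p = 0.874 and 0.466). Of 5 receptor genes tested, Ifnlr1 alone was higher, at 0.333 ± 0.105 CPM in void-treated and 0.691 ± 0.127 in DHT-treated mice (SD, n = 5 per group), and this chain of the type III receptor kept its call in only 3 of the 10 fits with 1 mouse left out (highest adjusted p = 0.100, without void replicate 11). Among the genes of the ISGF3 route, 1 of 6 was higher. That was Irf9, its DNA-binding subunit, which ranged from 7.19 to 8.63 CPM with void and from 11.1 to 22.2 CPM with DHT, a log2 fold change of 1.06 ± 0.16 (edgeR, adjusted p = 0.00761). Stat2, a partner of Irf9 in ISGF3, had a log2 fold change of 0.12 ± 0.09 (edgeR, adjusted p = 0.602). Jak2 was at 0.02 ± 0.09 on the log2 scale.

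Sensors and inhibitors of the pathway changed in part. Of 16 sensor and adaptor genes tested, 7 were higher, against 5.22% of all genes tested. Their median log2 fold change was 0.46. The 7 included Zbp1, which passed the expression filter through the DHT group (3 to 9 counts with void, 17 to 93 with DHT). Irf7, a transcription factor that amplifies type I interferon production, had a log2 fold change of 2.18 ± 0.33 (edgeR, adjusted p = 0.00761). The endosomal sensors Tlr9 and Tlr7, which detect DNA and single-stranded RNA, had log2 fold changes of 1.07 ± 0.21 and 0.999 ± 0.20 (edgeR, adjusted p = 0.0139 and 0.0149). Both lost the call without void replicate 11 (adjusted p = 0.0533 and 0.0568). Tbk1, the kinase downstream of several sensors, had a log2 fold change of -0.04 ± 0.06. Of 14 negative regulators tested, 3 were higher, against the same 5.22% of all genes tested. Usp18, which removes Isg15 from proteins and dampens receptor signalling, had a log2 fold change of 2.42 ± 0.34 and the phosphatase gene Ptpn6 one of 1.22 ± 0.16 (edgeR, adjusted p = 0.00670 for both). Socs3, an inhibitor of JAK kinases, had a log2 fold change of 0.94 ± 0.22 (edgeR, adjusted p = 0.0321) and kept its call in 2 of the 10 fits with 1 mouse left out. Tollip had a log2 fold change of -0.00 ± 0.05.

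Other interferon-stimulated genes were higher in larger share, 20 of 26 tested against 5.22% of all genes tested. Their median log2 fold change was 1.41. Isg15, the ubiquitin-like modifier, averaged 0.740 ± 0.235 CPM in void-treated and 3.26 ± 1.85 CPM in DHT-treated mice (SD, n = 5 per group), and its log2 fold change was 2.15 ± 0.41 (edgeR, adjusted p = 0.0122). Its groups overlapped. Lgals3bp, a secreted glycoprotein, had a log2 fold change of 1.91 ± 0.26, the membrane tether Bst2 one of 1.94 ± 0.30 and the chemokine Cxcl10 one of 3.11 ± 0.49 (edgeR, adjusted p = 0.00670, 0.00761 and 0.00761). The void libraries held 7 to 38 counts of Cxcl10 each, against 86 to 462 in the DHT libraries. With at least 10 counts required in every library, Cxcl10 was not tested. Samd9l was at 0.65 ± 0.34 and did not pass. Among 7 tested genes listed as relatives of the members, by name or, for Nmi, as the partner of Ifi35, 1 was higher. This was Ifi30, a lysosomal thiol reductase of another protein family, with a log2 fold change of 1.29 ± 0.20 (edgeR, adjusted p = 0.00761). Nmi, the partner of Ifi35, had a log2 fold change of 0.32 ± 0.12 (adjusted p = 0.177), Ifit1bl1 one of -0.21 ± 0.13 (adjusted p = 0.448) and Ifitm10 one of -0.07 ± 0.14 (adjusted p = 0.883, all from edgeR). Over all these lists together, 33 of 74 tested genes were higher and none was lower, against 5.22% and 0.261% of all genes tested. Some of the 33, such as Ifnlr1 (5 to 17 counts with void, 20 to 29 with DHT), passed the expression filter through the DHT group. With at least 10 counts required in every library, some of the 74 genes were not tested and 25 were higher. By that filter, 830 of all 15973 genes tested were higher. The count of higher genes was 14 without void replicate 11, and 21 without void replicate 4 or without DHT replicate 1.

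**Figure D4:**
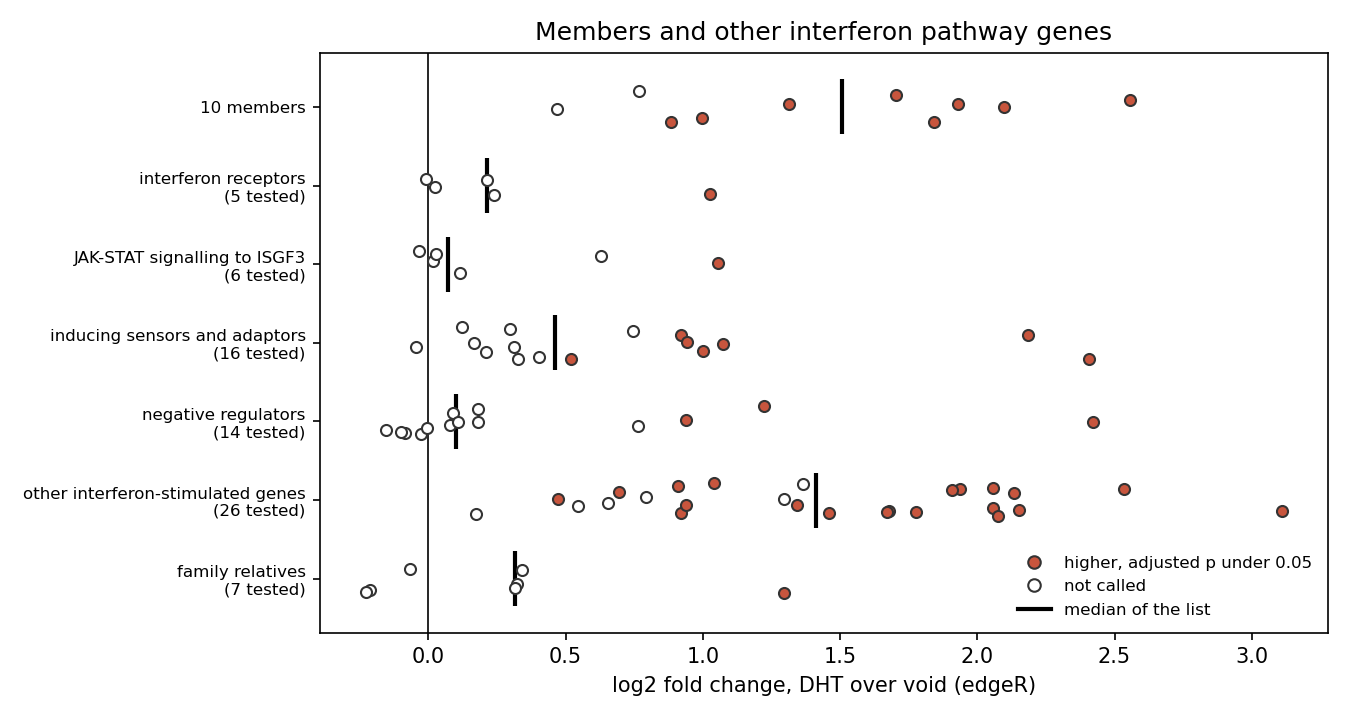
Log2 fold change, DHT over void, of the 10 members and of the tested genes in 6 other interferon pathway lists (filled, adjusted p under 0.05), with the median of each list as a bar. The medians are 1.51 for the members and 1.41 for other interferon-stimulated genes, and 0.07 to 0.46 for the remaining lists.

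The genes whose pattern over the 10 mice was closest to the mean of the 4 IFIT members were Trim30a, Rtp4, Mx2, Ddx60 and Gbp2. Their mean absolute difference from that mean, in centred log2 CPM, was 0.127, 0.129, 0.132, 0.132 and 0.170, against a median of 0.728 over the 17272 genes compared. All 5 were higher with DHT, with log2 fold changes from 1.24 for Gbp2 to 1.68 for Mx2 (edgeR, adjusted p = 0.0272 and 0.0193). Leaving out 1 mouse, Mx2 lost its call in 4 of 10 fits (without void replicates 10, 11 and 4 and DHT replicate 1, highest adjusted p = 0.0658). Gbp2 lost it in 5 of 10 fits (the same 4 and DHT replicate 3, highest adjusted p = 0.0840). Since the treatment separates the mice in both, the likeness includes the difference between the groups. The rise of these 5 genes with DHT thus followed from how they were picked and is no separate result.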

How the data were processed

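The data were counts of mRNA from hippocampus of 10 female P301S mice. HTStream was used by the authors to clean the reads and STAR 2.7.10b to align them, and the table they deposited gives unnormalized read counts for each gene. The study's methods name mm10 and the submitters' processing notes name mm39. Strand setting, annotation release and the handling of reads that match several genes are not given in the sources used here. Promoter coordinates are those of RefSeq on GRCm38.p6 and no others are given. Total counts per library ranged from 27188854 to 47113661 with void and from 33523527 to 45947784 with DHT. Symbols were matched for 51948 of 56884 identifiers in GENCODE M21, which also gave exon lengths (all exons of a gene joined), and 51911 of them carried a later version number than that release.

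The main test was that of edgeR 4.0.16 under R 4.3.3 (TMM scaling, expression filter by group, group as the only term, quasi-likelihood test, Benjamini-Hochberg adjustment over all genes tested). Standard errors were derived from the log2 fold change and its F statistic. Alternatives were DESeq2 1.42.0, other size factors, other filters, 2 marker covariates and leaving out each mouse. Log2 CPM used a prior count of 2. The tests were checked on simulated data. The members and gene lists were chosen with earlier results of these data known. Named were all members, a few receptor and signalling genes, the 3 genes with the lowest p and the 1 with the highest p in each pathway list, and the 5 genes closest to the IFIT pattern. Ifi44l, Oas3 and Il10rb were picked with their values in view. Some genes of the lists are counted but not reported here by name.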

Additional observations from a re-analysis of the deposited data

Results flagged for a closer look

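In 6 of the 82 groups examined over the named genes, 1 mouse lay apart, its distance in CPM from the next mouse divided by the range of its group exceeding 0.71. For independent, normally distributed values this rule would flag about 1 in 20 groups, here 4.1. The named genes come from the same mice and some follow each other closely, so 4.1 is only a rough guide. Among the members these were DHT replicate 3 as the highest for Ifit1 (0.746) and void replicate 9 as the highest for Ifi27 (0.799). Among the other pathway genes they were void replicate 4 as the lowest for Irf7 (0.900) and the highest for Tbk1 (0.723), DHT replicate 3 as the highest for Samd9l (0.786) and void replicate 5 as the highest for Mx2 (0.775).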

How the results depend on the processing

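All 10 members kept a positive log2 fold change under every alternative in which they were tested. Ifi27l2a was not tested with at least 10 counts in every library, where 7 of 9 members were called. The count of called members was 8 with other normalizations and without the filter, 9 with DESeq2, and 10 if p was left unadjusted. Under the choroid plexus or the microglia covariate, 0 members, 0 other pathway genes and 0 genes in all were called, higher or lower. Both covariates were fully apart between the void-treated and DHT-treated mice. With 1 mouse left out, the called members ranged from 6 to 9, those past the fold limit as well from 5 to 7, other pathway genes from 14 to 35, all higher genes from 351 to 1072 and all lower genes from 5 to 77. The 920 higher and 46 lower genes became 2316 and 743 at an unadjusted p, and the lower genes 224 with DESeq2. Higher genes numbered 351 without void replicate 11, 395 without DHT replicate 1, 493 and 552 without void replicates 4 and 10, and 518 without DHT replicate 3. Lower genes numbered 11, 5 and 9 without void replicates 10, 11 and 4, and 13, 77, 20 and 29 without DHT replicates 1, 2, 3 and 6. Of 18 named genes outside the members that were called, 12 kept the call in all 10 fits with 1 mouse left out, and Ifnlr1, Tlr9, Tlr7, Socs3, Mx2 and Gbp2 did not. All 6 lost it without void replicate 11. A prior count of 0.5 in place of 2 moved no difference of mean log2 CPM beyond the spread between mice. For each of these, the cause was not tested. No paired analysis was possible because the labels name no pairs or litters, although the study reports randomizing littermates between the implants. Depth limits Ifi27l2a in the void libraries and the interferon genes.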

Other observations

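Some relatives of the members and other pathway genes had too few counts for the test. Ifi44l, a neighbour in name of Ifi44, had 16 and 21 counts in DHT replicates 5 and 6 and 0 in DHT replicates 1, 2 and 3, although DHT replicate 3 had the highest Ifi44. In void replicates 4, 5, 9, 10 and 11 it had 0, 0, 1, 2 and 4 counts. Oas3, which makes the second messenger that activates RNase L, had 1 to 5 counts in the void libraries, and 17, 11, 46, 4 and 11 counts in DHT replicates 1, 2, 3, 5 and 6. Il10rb, a receptor chain that interferon lambda shares with other cytokines, had 2 to 10 counts with void and 4 to 14 with DHT.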
